A study of Mus musculus with 2 samples.

Results

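The 10 genes described here are immediate early genes of the activator protein AP-1 and early growth response (EGR) groups: Fos, Fosb, Jun, Junb, Jund, Egr1, Egr2, Egr3, Dusp1 and Nr4a1. They were taken by symbol from a table of 22216 gene rows, and all 10 were found, each in 1 row that overlapped no other row. All 10 reached an RPKM (reads scaled to gene length and to the mapped reads of the library) of 1 in at least 1 library and so were among the 11141 genes kept for comparison. The measurements are RNA sequencing of whole mouse spleen in 2 genotypes, NOD.L7 and NOD.g7, with 1 library per genotype, each made from the pooled spleens of 3 mice. NOD stands for non-obese diabetic, an inbred mouse strain prone to autoimmune diabetes. No treatment, age or sex is given in the labels, and they do not say what L7 and g7 stand for. The series title names the mice NOD.Lc7 and NOD, and the table heads its columns NOD.LC7 and NOD, so the LC7 column was read as the NOD.L7 library and the remaining column as the NOD.g7 library.

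With 1 library per genotype no spread between mice or libraries can be measured. Every difference below is one between these 2 libraries, with no p-value and no replicate check. The deposited values rest on 12.1 Gb of mapped sequence in NOD.L7 and 9.13 Gb in NOD.g7, as worked out from the steps of low values. Intervals given with folds are 95% exact binomial (Clopper-Pearson) intervals of approximated fragment counts. They cover counting error only. In a bulk sample, fewer cells of a type and less RNA per cell cannot be told apart. Markers of spleen were present in both libraries. The T cell gene Cd3e was at an RPKM of 152 in NOD.L7 and 150 in NOD.g7, and the red pulp macrophage factor gene Spic at 32.9 in NOD.L7 and 20.0 in NOD.g7. Actb was at 2839 in NOD.L7 and 2840 in NOD.g7.

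Immediate early genes are transcribed within minutes of a stimulus, without new protein synthesis, because their promoters are read by factors that are already present and are switched on by MAP kinases. The Fos and Jun proteins pair through leucine zippers to form AP-1, and the EGR proteins are zinc finger factors that bind GC-rich sites. In lymphocytes these genes answer antigen receptor signals, in myeloid cells they answer microbial and cytokine signals, and in any tissue they also answer handling and dissociation.

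Promoter sequences show which regulatory letters the members carry close to their starts, and 8 of the 10 genes matched RefSeq entries (build GRCm38.p6). Egr1 and Egr3 are named only. The 250 bases before the annotated start are printed 5′ to 3′ for 4 genes that were higher in NOD.L7 (Fos, Fosb, Junb and Dusp1) and for 2 that differed less (Egr2 and Nr4a1). All of the printed windows hold a match. The windows of Jun, which was also higher in NOD.L7, and of Jund held no match and are not printed. Capitals mark every match, on either strand, to the searched motifs. The first was TGACGTCA, the cyclic AMP response element or CRE, which CREB and ATF proteins bind. Its short form was searched as TGACG, which reads as CGTCA on the opposite strand. The AP-1 site was searched only as TGACTCA and, with G in the centre, the variant TGAGTCA. The EGR site was GCGGGGGCG or its common variant GCGTGGGCG. The last were the TATA motif TATAAA and the CArG box that serum response factor binds. The short form lies within the CRE, so each CRE also counts as a short form, and the short form was added after the sequences had been seen.
Fos: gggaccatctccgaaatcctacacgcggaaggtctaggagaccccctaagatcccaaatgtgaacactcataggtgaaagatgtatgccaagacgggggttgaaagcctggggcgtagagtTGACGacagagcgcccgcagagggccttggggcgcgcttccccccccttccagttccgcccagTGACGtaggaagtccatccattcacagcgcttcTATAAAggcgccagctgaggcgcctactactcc
Fosb: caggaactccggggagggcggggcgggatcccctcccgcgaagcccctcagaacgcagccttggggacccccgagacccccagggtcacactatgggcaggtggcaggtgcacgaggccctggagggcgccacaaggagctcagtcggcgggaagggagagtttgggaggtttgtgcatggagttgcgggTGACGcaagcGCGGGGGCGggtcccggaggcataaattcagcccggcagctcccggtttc
Junb: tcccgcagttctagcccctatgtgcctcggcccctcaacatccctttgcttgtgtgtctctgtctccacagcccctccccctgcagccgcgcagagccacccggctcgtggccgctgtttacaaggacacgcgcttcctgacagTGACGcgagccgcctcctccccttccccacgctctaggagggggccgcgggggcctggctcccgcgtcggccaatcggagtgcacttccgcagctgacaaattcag
Dusp1: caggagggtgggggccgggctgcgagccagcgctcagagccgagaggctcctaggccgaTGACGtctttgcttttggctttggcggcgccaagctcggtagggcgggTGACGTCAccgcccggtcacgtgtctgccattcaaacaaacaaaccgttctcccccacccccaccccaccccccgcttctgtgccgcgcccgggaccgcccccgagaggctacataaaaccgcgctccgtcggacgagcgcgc
Egr2: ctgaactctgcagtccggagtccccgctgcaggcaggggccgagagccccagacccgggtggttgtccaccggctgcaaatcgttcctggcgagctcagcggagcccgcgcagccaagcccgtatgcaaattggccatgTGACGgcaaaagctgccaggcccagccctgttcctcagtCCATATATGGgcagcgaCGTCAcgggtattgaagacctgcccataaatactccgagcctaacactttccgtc
Nr4a1: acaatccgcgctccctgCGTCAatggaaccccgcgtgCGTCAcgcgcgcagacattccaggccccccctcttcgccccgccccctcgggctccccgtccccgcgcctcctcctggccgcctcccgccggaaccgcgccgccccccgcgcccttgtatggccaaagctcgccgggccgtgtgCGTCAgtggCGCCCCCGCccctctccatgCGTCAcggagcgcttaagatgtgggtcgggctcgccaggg

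These windows are on chromosome 12 at 85473640 to 85473889 (plus strand) for Fos, chromosome 7 at 19310046 to 19310295 (minus) for Fosb and chromosome 8 at 84978749 to 84978998 (minus) for Junb. The window of Dusp1 is on chromosome 17 at 26508473 to 26508722 (minus), that of Nr4a1 on chromosome 15 at 101266596 to 101266845 (plus), and that of Egr2, the third of its 5 entries, on chromosome 10 at 67537619 to 67537868 (plus). The short form TGACG was in at least 1 entry of 6 of the 8 genes, Fos, Fosb, Junb, Egr2, Dusp1 and Nr4a1, and in 17.8% of all 32851 promoter windows of this length (19.8% of 27025 genes). It was not in the windows of Jun or Jund. The full CRE was in Dusp1 alone of the 8 genes, 143 to 136 bases before the start (positions -143 to -136), and in 1.55% of all windows. Within the windows, a CArG box was in Egr2 alone of the 8 genes, in 4 of its 5 entries, and in 1.47% of all windows. These entries are not separate: the windows of entries 3, 4 and 5 overlap and hold the same CCATATATGG. Entry 2 holds CCTTTTTTGG. Sequence outside the windows was not searched, and Egr1 and Egr3 had no window. A CArG box further upstream of Fos or of another member would therefore not be seen. The EGR site was in Fosb and Nr4a1 and in 3.06% of all windows, and the TATA motif was in Fos and in 12.4%. Neither searched spelling of the AP-1 site was in any of the 8 genes, while 4.46% of all windows held a match. Looser spellings were not searched, and the unprinted Jun window holds TGACATCA, which no searched motif matches. The short form was thus shared by genes that differed between the libraries (Fos, Dusp1) and by Nr4a1, which was slightly lower in NOD.L7. The GC content of the windows ran between 47.6% for Jund and 74.4% for Nr4a1, against a median of 52.4% over all windows, and GC-rich motifs are more frequent in GC-rich windows. A match is a description of letters, not evidence of binding.

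The AP-1 genes other than Jund, together with Dusp1, were higher in NOD.L7 by 1.52-fold to 2.44-fold, while the EGR genes and Nr4a1 differed by at most 1.27-fold, in both directions. Differences were measured as the log2 ratio of RPKM + 1, NOD.L7 over NOD.g7, which understates the change of low genes. By this measure 8 of the 10 members were higher in NOD.L7 and 2 were lower, where 56.2% of the kept genes were higher and 43.8% lower. The median log2 ratio of the members was 0.42, against 0.02 over all kept genes, of which 86.4% lay within 0.25 of 0. A threshold was set at a log2 ratio of 1 or more in size, and 1 of the 10 members passed it, Fos, which was higher in NOD.L7. Of all kept genes 0.709% passed in either direction and 0.386% as higher. At a looser threshold, a 1.5-fold ratio on the same scale, 4 members passed, all as higher: Fos, Dusp1, Jun and Junb. Junb lay just above it and dropped below when the ratios were centred on their median or scaled with a TMM factor, which left 3 members, while Fosb passed as well with a pseudocount of 0.1 or 0.5, which made 5. Of all kept genes 2.92% passed the looser threshold in either direction and 1.76% as higher. The share in either direction was 2.85% with centring or the TMM factor, 5% with a pseudocount of 0.1 and 3.82% with 0.5. The members' shares were thus above these backgrounds, but 10 genes that share upstream signals are not 10 independent measurements, and the members were chosen with earlier results of these data known. The counting interval of the fold excluded 1 for 9 of the 10 members at an assumed 200 bases per fragment, Jund being the exception, and for all 10 at 100 bases.

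**Figure D1:**
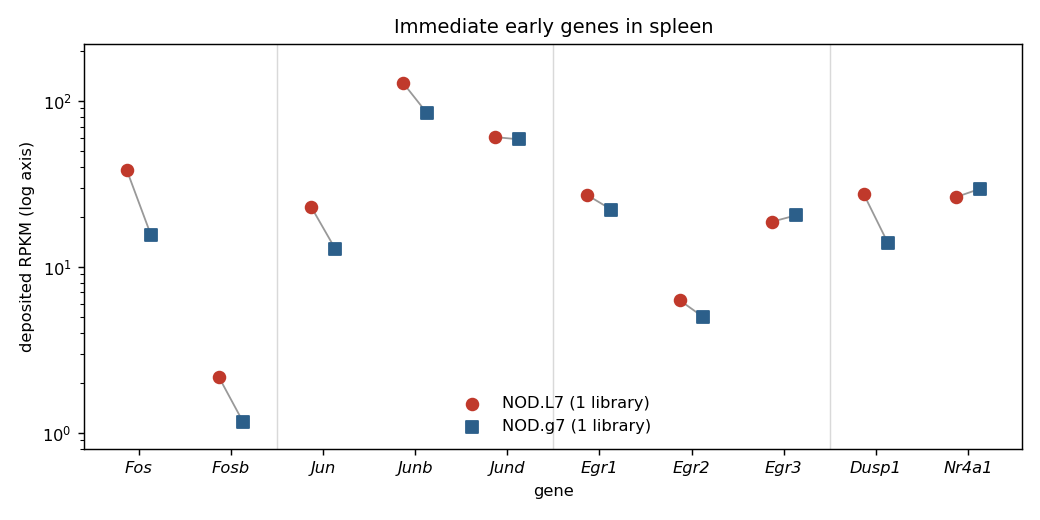
Deposited RPKM (log axis) of the 10 genes, with red circles for the NOD.L7 library and blue squares for the NOD.g7 library and a line joining the values of a gene. Fos and Dusp1 show the steepest lines, with Fos at 38.1 in NOD.L7 and 15.6 in NOD.g7, and Jund, Egr3 and Nr4a1 are nearly level.

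The Fos family provides the AP-1 subunits that cannot pair with themselves and need a Jun partner. Fos (mm9 chromosome 12, 86814851 to 86818219), the prototype of the family, was at an RPKM of 38.1 in NOD.L7 and 15.6 in NOD.g7. It was 2.44-fold higher in NOD.L7, with a counting interval of 2.30 to 2.59 and a log2 ratio of 1.24. Its log2 ratio ranked 18 among the 11141 kept genes. By level it stood at rank 1675 of the kept genes in NOD.L7 and at rank 4555 in NOD.g7. Fosb (mm9 chromosome 7, 19888045 to 19895394), a close relative that accumulates with repeated stimulation in the brain, was the lowest of the 10 genes in both libraries, at an RPKM of 2.16 in NOD.L7 and 1.17 in NOD.g7. Its fold of 1.85 had the widest interval of the 10, 1.57 to 2.19, since it rested on about 493 fragments in NOD.L7 and 201 in NOD.g7. Its log2 ratio of 0.54, which the added 1 lowers, stayed under the looser threshold although the plain fold was above 1.5. Fos was 17.7 times the RPKM of Fosb in NOD.L7 and 13.4 times in NOD.g7, so Fos made up 94.6% of the RPKM summed over both genes in NOD.L7 and 93.0% in NOD.g7.

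The Jun family provides subunits that can pair with themselves or with Fos proteins. Jun (mm9 chromosome 4, 94715727 to 94718913), the strongest activator of the family, was at an RPKM of 23.0 in NOD.L7 and 12.9 in NOD.g7, 1.78-fold higher in NOD.L7 (interval 1.69 to 1.89, log2 ratio 0.79). Junb (mm9 chromosome 8, 87500808 to 87502647), which can dampen Jun activity and is abundant in haematopoietic cells, was the highest of the 10 genes in both libraries. It was at 128 in NOD.L7 and 84.0 in NOD.g7, 1.52-fold higher in NOD.L7 (interval 1.48 to 1.57, log2 ratio 0.60). Jund (mm9 chromosome 8, 73221638 to 73224515), which is known for steady expression in resting cells, was at 60.4 in NOD.L7 and 58.6 in NOD.g7. Its fold of 1.03 had an interval of 0.99 to 1.07, or of 1.004 to 1.061 at 100 bases per fragment, so whether the interval excluded 1 depended on the assumed fragment size. The RPKM of Fos over that of Jund was 0.63 in NOD.L7 and 0.27 in NOD.g7, and that of Jun over Jund was 0.38 in NOD.L7 and 0.22 in NOD.g7. These ratios within a library do not depend on how the libraries were scaled to each other.

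Summed over the 5 AP-1 members, the RPKM was 252 in NOD.L7 and 172 in NOD.g7, a ratio of 1.46. Junb made up 50.8% of that sum in NOD.L7 and 48.8% in NOD.g7, and Jund 24.0% in NOD.L7 and 34.0% in NOD.g7. The share of Fos was 15.1% in NOD.L7 and 9.06% in NOD.g7, and that of Jun was 9.14% in NOD.L7 and 7.47% in NOD.g7. The larger sum in NOD.L7 thus came with a smaller share of Jund and a larger share of Fos, while Junb stayed the largest part in both libraries.

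**Figure D2:**
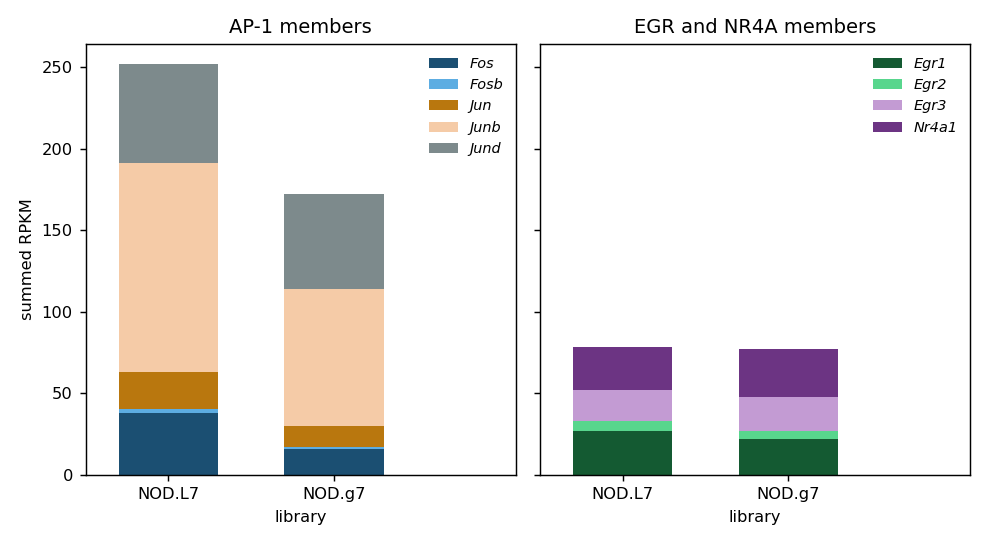
Summed RPKM (linear axis) of the 5 AP-1 members on the left and of the 4 EGR and NR4A members on the right, stacked by gene, with the NOD.L7 library left of the NOD.g7 library in each panel. The AP-1 stack reaches 252 in NOD.L7 and 172 in NOD.g7, while the EGR and NR4A stacks are at 78.2 in NOD.L7 and 76.9 in NOD.g7.

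The EGR genes and Nr4a1 are the immediate early genes most used as readouts of antigen receptor signalling in lymphocytes. Egr1 (mm9 chromosome 18, 35020861 to 35024610), which is induced by most growth factor and receptor signals, was at an RPKM of 27.0 in NOD.L7 and 22.1 in NOD.g7. It was 1.22-fold higher in NOD.L7, with an interval of 1.17 to 1.27 and a log2 ratio of 0.28. Egr2 (mm9 chromosome 10, 67000617 to 67004936), which restrains T cell activation together with Egr3, was at 6.30 in NOD.L7 and 4.96 in NOD.g7, 1.27-fold higher (interval 1.15 to 1.40). Egr3 (mm9 chromosome 14, 70477252 to 70479964) went the other way, at 18.7 in NOD.L7 and 20.4 in NOD.g7, a fold of 0.92 with an interval of 0.87 to 0.97. Nr4a1 (mm9 chromosome 15, 101097277 to 101105225), which encodes the orphan nuclear receptor Nur77, was at 26.3 in NOD.L7 and 29.5 in NOD.g7. Its fold of 0.89 (interval 0.85 to 0.93, log2 ratio -0.16) was the lowest of the 10 members.

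These 4 genes summed to an RPKM of 78.2 in NOD.L7 and 76.9 in NOD.g7, a ratio of 1.02, with a median log2 ratio of 0.08 against 0.60 for the 5 AP-1 members. None of the 4 passed the looser threshold, under any setting tried, as against 3 of the 5 AP-1 members, or 2 of 5 with median centring or the TMM factor and 4 of 5 with a pseudocount of 0.1 or 0.5. Of all kept genes 2.92% passed this threshold in either direction in the main setting, so no pass among 4 genes is near that background. The share was 2.85% with median centring or the TMM factor, 5% with a pseudocount of 0.1 and 3.82% with 0.5. Whether the AP-1 and EGR groups differ beyond the variation between mice was not tested, since each genotype has 1 library. The contrast changed the order of the genes within each library. In NOD.L7, Fos was above Egr1 and Nr4a1, at 1.41 times the RPKM of Egr1 and 1.45 times that of Nr4a1, while in NOD.g7 it was below both, at 0.71 times and 0.53 times.

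Dusp1 (mm9 chromosome 17, 26642536 to 26645417) is the inhibitor among the members, a phosphatase that is induced with the others and switches off the MAP kinases p38 and JNK. It was at an RPKM of 27.4 in NOD.L7 and 14.0 in NOD.g7, 1.96-fold higher in NOD.L7 (interval 1.84 to 2.08). Its log2 ratio of 0.92 ranked 58 among the kept genes, just under the threshold of 1. The RPKM of Dusp1 over that of Jund was 0.45 in NOD.L7 and 0.24 in NOD.g7. In NOD.L7 the levels of Dusp1, Egr1 and Nr4a1 lay close together, between 26.3 and 27.4, while in NOD.g7 Dusp1 was near Fos and Jun, between 12.9 and 15.6. The order of levels in NOD.L7 was Junb, Jund, Fos, Dusp1, Egr1, Nr4a1, Jun, Egr3, Egr2 and Fosb. In NOD.g7 it was Junb, Jund, Nr4a1, Egr1, Egr3, Fos, Dusp1, Jun, Egr2 and Fosb. Without replicates, neighbours in these orders cannot be told apart beyond counting error.

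**Figure D3:**
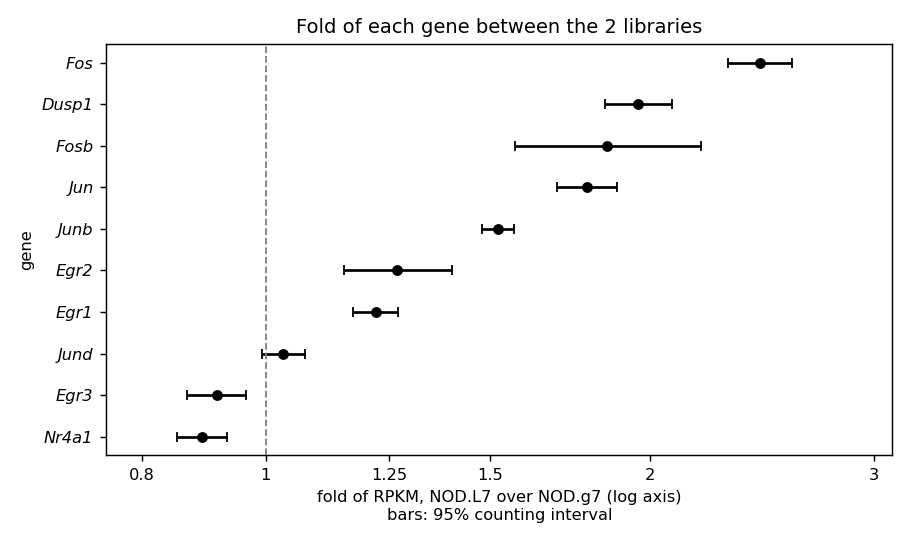
Fold of the deposited RPKM, NOD.L7 over NOD.g7, on a log axis, for the 10 genes in order of fold, with bars for the 95% counting interval and a dashed line at 1. Fos (2.44), Dusp1, Fosb, Jun and Junb (1.52) lie to the right of all EGR genes, the bar of Jund (200 bases per fragment) crosses 1, and Egr3 and Nr4a1 lie to the left of it.

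**Figure D4:**
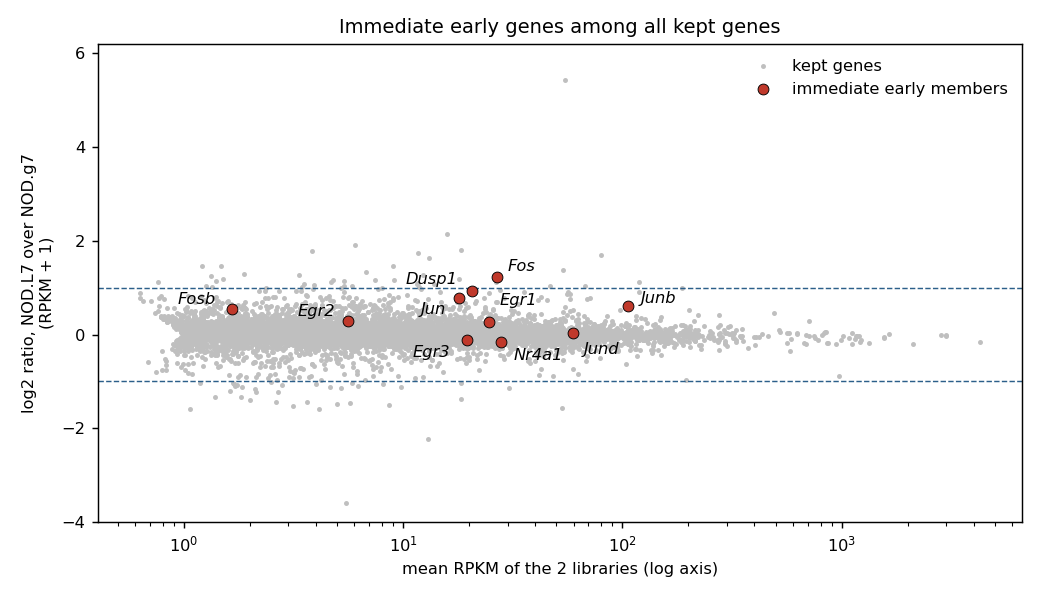
Log2 ratio of RPKM + 1, NOD.L7 over NOD.g7, against the mean RPKM of the 2 libraries (log axis), with grey points for the 11141 kept genes, red points for the 10 members and dashed lines at a log2 ratio of 1 and -1. Fos lies above the upper line, Dusp1, Jun and Junb lie at the upper edge of the cloud, and the other 6 lie within it.

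The genes that act upstream differed little, as did most kept genes. Of 24 genes for MAP kinases, their activators and the nuclear factors that switch on immediate early promoters, all 24 were kept. In NOD.L7 16 were higher and 8 lower, and none passed either threshold. The median log2 ratio was 0.04, against 0.02 over all kept genes. Of all kept genes 2.92% passed the looser threshold in either direction and 56.2% were higher, which are the backgrounds for the lists below too. No pass among 24 genes is near the 2.92%. Srf, the serum response factor, was at an RPKM of 24.8 in NOD.L7 and 23.9 in NOD.g7. The largest differences were in Mapk3, which encodes the kinase ERK1, at 25.7 in NOD.L7 and 30.6 in NOD.g7, and Crem, a cyclic AMP responsive modulator, at 2.40 in NOD.L7 and 1.96 in NOD.g7. Mapk9, a JNK gene, was at 11.1 in NOD.L7 and 12.9 in NOD.g7, and the kinase gene Map2k1 was at 59.3 in NOD.L7 and 67.7 in NOD.g7. RNA levels say nothing of the phosphorylation of these proteins.

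Among the other MAP kinase phosphatases none matched the difference of Dusp1 in size. Of 9 listed genes 8 were kept, 6 were higher and 2 lower in NOD.L7, none passed either threshold, and the median log2 ratio was 0.17. No pass among 8 genes is near the 2.92% of all kept genes that passed the looser threshold. Dusp2, a phosphatase of activated lymphocytes and myeloid cells, was lower in NOD.L7, at 56.5 in NOD.L7 and 69.3 in NOD.g7. Dusp6, which acts on ERK, was at 46.1 in NOD.L7 and 40.3 in NOD.g7. Dusp4 was at 3.30 in NOD.L7 and 2.55 in NOD.g7, and Dusp3 at 4.52 in NOD.L7 and 3.83 in NOD.g7.

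Other leucine zipper genes of the AP-1 superfamily ranged from higher in NOD.L7 to close to equal, without a clear gap. Of 15 listed genes 13 were kept, 11 were higher and 2 lower, and 5 passed the looser threshold as higher, with a median log2 ratio of 0.16. None reached a log2 ratio of 1. Fosl2, Maf, Jdp2 and Batf3 were among these 5. Fosl2, the Fos family gene for Fra-2, was at an RPKM of 7.32 in NOD.L7 and 3.87 in NOD.g7, a fold of 1.89 (interval 1.77 to 2.03). Maf was at 14.4 in NOD.L7 and 8.31 in NOD.g7, and Jdp2, a Jun dimerisation partner that represses AP-1, at 4.63 in NOD.L7 and 2.50 in NOD.g7. Batf3, a factor of cross-presenting dendritic cells, was at 6.37 in NOD.L7 and 3.86 in NOD.g7. At the other end, Atf4 was at 85.4 in NOD.L7 and 85.1 in NOD.g7. Another Fos-related gene, Fosl1, was at 0.0903 in NOD.L7 and listed at 0 in NOD.g7.

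Relatives of the EGR and NR4A members were few. Of 5 listed genes 3 were kept and none passed either threshold. Nab2, an EGR corepressor that EGR proteins themselves induce, was at 18.0 in NOD.L7 and 15.5 in NOD.g7, and Nab1 was at 18.6 in NOD.L7 and 18.8 in NOD.g7. Nr4a3 was at 3.59 in NOD.L7 and 2.56 in NOD.g7, a fold of 1.41 (interval 1.28 to 1.55), in the opposite direction to Nr4a1. Of 12 genes that antigen receptor signals induce beside EGR and NR4A genes, all were kept, 9 were higher and 3 lower, and Pdcd1 alone passed the looser threshold. Pdcd1, the inhibitory receptor PD-1, was at 8.30 in NOD.L7 and 5.09 in NOD.g7, while the early activation marker Cd69 was at 27.9 in NOD.L7 and 29.0 in NOD.g7. Lag3 was at 5.40 in NOD.L7 and 3.96 in NOD.g7, Nrn1 at 4.02 in NOD.L7 and 2.93 in NOD.g7, and Folr4 (now Izumo1r) at 23.0 in NOD.L7 and 17.6 in NOD.g7.

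Other immediate early genes were mostly higher in NOD.L7, but by small amounts. The lists overlap in part, so their counts are not separate. Atf3 is also in the leucine zipper list, Cd69 and Myc are also in the antigen receptor list, and Nab2 is in that list and among the EGR relatives. Of 33 listed genes 30 were kept, 26 were higher and 4 lower, 1 passed the looser threshold, and the median log2 ratio was 0.11. The gene that passed was Nfil3, a leucine zipper factor of innate lymphocytes and NK cells, at an RPKM of 5.61 in NOD.L7 and 2.95 in NOD.g7. Plk3, a stress kinase gene, was at 7.62 in NOD.L7 and 4.91 in NOD.g7, and Errfi1, a feedback inhibitor of EGF receptor signalling, at 2.72 in NOD.L7 and 1.86 in NOD.g7. Several genes that are commonly induced together with Fos differed far less than Fos. Ier2 was at 67.4 in NOD.L7 and 65.4 in NOD.g7 (fold 1.03, interval 0.99 to 1.07), Btg2 at 79.4 in NOD.L7 and 78.5 in NOD.g7 (fold 1.01, interval 0.99 to 1.04), and Nfkbia at 105 in NOD.L7 and 102 in NOD.g7 (fold 1.02). Zfp36, which encodes the RNA-destabilising protein tristetraprolin, was at 233 in NOD.L7 and 189 in NOD.g7. Klf2, a quiescence and trafficking factor of lymphocytes, was the furthest below in NOD.L7, at 118 in NOD.L7 and 156 in NOD.g7. Of these, Ier2, Btg2, Nfkbia and Zfp36 were chosen for mention after their values were seen.

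The kept genes of a heat shock and tissue handling list were all higher in NOD.L7 to a small degree. Of 12 listed genes 9 were kept, and all 9 were higher, between 0.07 and 0.41 on the log2 ratio, with a median of 0.23 and none past either threshold. The genes not kept, Hspa1a, Hspa1b and Hspb1, were below an RPKM of 1 in both libraries. Their plain folds were larger, at 3.05, 3.42 and 2.89. Hspa8, the constitutive HSP70 chaperone, was at an RPKM of 132 in NOD.L7 and 99.3 in NOD.g7, and its cochaperone Dnaja1 at 21.5 in NOD.L7 and 16.2 in NOD.g7. Hsp90ab1 was at 779 in NOD.L7 and 640 in NOD.g7, and Hmox1, the haem oxygenase of red pulp macrophages, at 141 in NOD.L7 and 112 in NOD.g7. The genes of this list were higher in the same library as Fos, Jun, Junb and Dusp1, and their part in those differences was not tested. Of 12 inducible cytokine and related genes, 6 were kept. Il1b was at 77.9 in NOD.L7 and 29.4 in NOD.g7, past the threshold of 1, while Tnf was at 11.4 in NOD.L7 and 12.6 in NOD.g7, Ccl3 at 5.92 in NOD.L7 and 5.42 in NOD.g7, and Ccl4 at 3.61 in NOD.L7 and 4.08 in NOD.g7. Cxcl10 was at 1.73 in NOD.L7 and 1.24 in NOD.g7, and Ifng at 1.32 in NOD.L7 and 1.06 in NOD.g7.

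**Figure D5:**
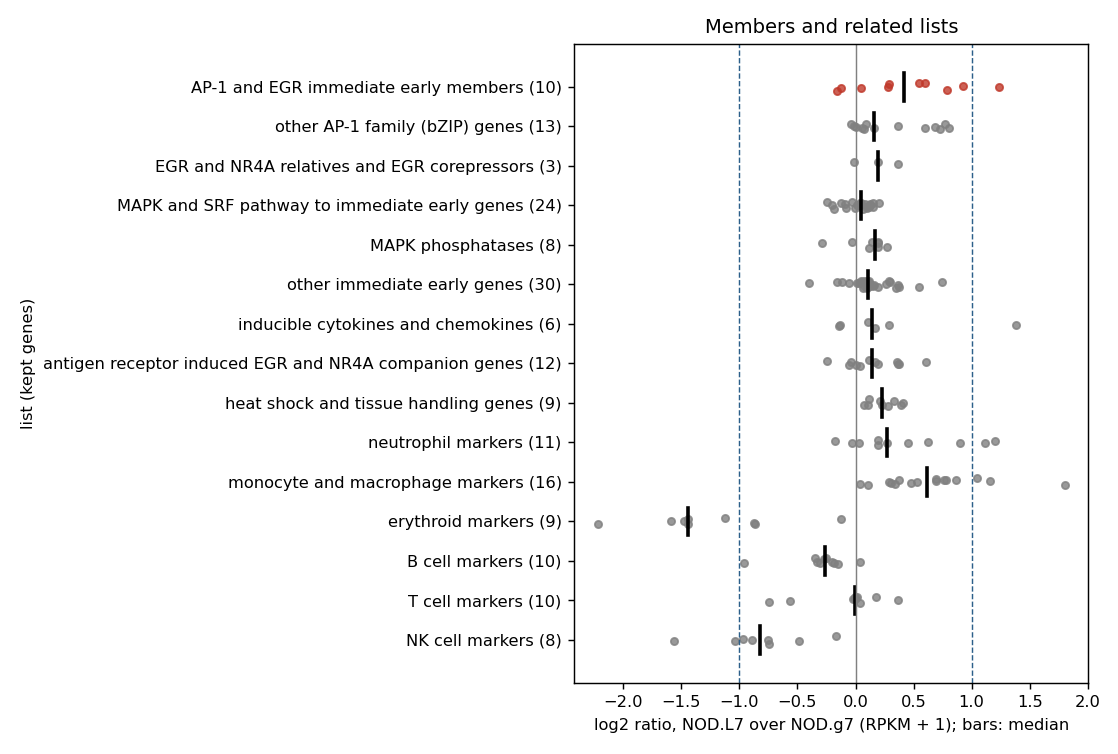
Log2 ratio of RPKM + 1, NOD.L7 over NOD.g7, of the kept genes in the members and in 14 other lists, with 1 point per gene, a black bar at each median, the number of kept genes in parentheses and dashed lines at 1 and -1. The members (median 0.42) are spread between -0.16 and 1.24, the MAP kinase pathway genes sit close to 0, the monocyte and macrophage markers (0.61) lie to the right and the erythroid markers (-1.44) to the left.

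Markers of cell types also differed between the libraries. Over all kept genes 2.92% passed the looser threshold in either direction, and 56.2% were higher in NOD.L7. All 16 kept monocyte and macrophage markers were higher in NOD.L7, 8 of them past the looser threshold, with a median log2 ratio of 0.61 and a summed RPKM of 1288 in NOD.L7 and 1023 in NOD.g7. Cd14 was at 29.1 in NOD.L7 and 7.64 in NOD.g7. Of 11 kept neutrophil markers 9 were higher, 4 of them past the looser threshold, and 2 lower. The neutrophil markers had a median of 0.27 and a sum of 1165 in NOD.L7 and 895 in NOD.g7. Cxcr2 had the largest log2 ratio of these, at 37.1 in NOD.L7 and 15.6 in NOD.g7. The 2 lower ones were Camp, at 34.5 in NOD.L7 and 39.1 in NOD.g7, and Ltf, at 28.4 in NOD.L7 and 29.0 in NOD.g7. Ngp was nearly level, at 70.2 in NOD.L7 and 68.8 in NOD.g7. All 9 kept erythroid markers were lower, 8 of them past the looser threshold, at a median of -1.44. Their sum was 45.0 in NOD.L7 and 112 in NOD.g7. All 8 NK cell markers were lower too (median -0.82), 6 of them past the looser threshold, with a sum of 177 in NOD.L7 and 309 in NOD.g7. Of 10 B cell markers 9 were lower, with a median of -0.26 and a sum of 2378 in NOD.L7 and 2911 in NOD.g7. Fcer2a alone of these passed the looser threshold, at 132 in NOD.L7 and 257 in NOD.g7. Of the 10 T cell markers 4 were higher and 6 lower, with a median near 0 and a sum of 1023 in NOD.L7 and 1032 in NOD.g7. The CD8 co-receptor gene Cd8a was at 31.7 in NOD.L7 and 53.7 in NOD.g7, past the looser threshold as lower, and Cd8b1 was at 54.9 in NOD.L7 and 81.8 in NOD.g7. Cd4 was at 136 in NOD.L7 and 106 in NOD.g7. No matched marker of these 6 cell types was listed at 0 in either library. The 9 matched stroma and endothelium markers summed to 73.8 in NOD.L7 and 75.2 in NOD.g7, and 2 of them were kept. Nearly all of that sum was Pecam1, at 71.2 in NOD.L7 and 72.7 in NOD.g7. Madcam1 and Dcn were listed at 0 in NOD.g7. The part of these marker differences in those of the members was not tested.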

How the data were processed

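Spleen RNA of NOD.L7 and NOD.g7 mice was sequenced as 1 library per genotype, from TruSeq libraries per the labels' protocols. The authors deposited 1 table of RPKM values per gene, with coordinates in mm9. CASAVA 1.8.2 and SAMtools 0.1.18 are named per the submitters' processing notes. The alignment settings, gene models and strandedness were not given in the sources used here, nor was the rule for reads that match in several places, which affects genes with near-identical copies.

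Genes were kept where the higher of the 2 RPKM values was 1 or more, and log2 ratios used a pseudocount of 1. Symbols that occurred more than once were not looked up, and older symbols were matched through RefSeq synonyms (GRCm38). Depth came from 115 low values in NOD.L7 and 103 in NOD.g7 of genes with 1 exon shorter than 2500 bases, of which 100% were whole multiples of 1 base's worth within 0.15. Fragments were approximated from RPKM, the longest GENCODE M21 transcript (at most the gene's span) and 200 bases per fragment. The steps were tested on simulated data. No test between genotypes was possible. Named genes were the members, the 4 (or fewer) kept genes of every other list whose log2 ratio was largest in size, and Actb, Cd3e, Spic and Vcam1. Some genes that this rule names are left out of the report, and a few further genes were named to describe their lists after their values were seen. The members and lists were chosen with earlier results of these data known. The settings also tried were a pseudocount of 0.1 or 0.5, a filter at 5 or none, centring on the median, TMM scaling that trimmed 30% of ratios and 5% of levels, plain folds, and 100 bases per fragment. Promoters were read from RefSeq entries. Calculations used Python 3.11.15, pandas 2.3.3 and SciPy 1.17.1.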

Additional observations from a re-analysis of the deposited data

How the results depend on the processing

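No paired analysis was possible because there was 1 library per genotype, and no library could be left out. The count of members higher in NOD.L7 was 8 under every setting tried except the filter at an RPKM of 5, which drops Fosb by construction and left 7 of 9. With that filter the median log2 ratio of the members was 0.29, against 0.42, for the same reason. The background of genes past a log2 ratio of 1 was 1.49% with a pseudocount of 0.1, 1.11% with 0.5, 0.356% without a filter, which adds low genes, 0.618% with the filter at 5, and 0.682% with median centring or the TMM factor, against 0.709%. At the looser 1.5-fold threshold the count of members was 3 with median centring or the TMM factor, where Junb fell just below it (0.58), and 5 with a pseudocount of 0.1 or 0.5, where Fosb passed (0.84 and 0.67), against 4. The share of all kept genes past that threshold was 2.85% with median centring or the TMM factor, against 2.92%. It rose to 5% with a pseudocount of 0.1 and to 3.82% with 0.5. The counting interval excluded 1 for 10 members at 100 bases per fragment, which assumes more fragments, against 9 at 200. The log2 ratio of no member changed sign or its side of the threshold of 1 under pseudocount, filter, centring, the TMM factor or the plain fold, but a pseudocount or filter cannot change a sign, and the other scalings moved ratios by about 0.02. Shares within a family do not depend on scaling. Depth limits Fosb most among the members.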

Other observations

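Some stress and inflammatory genes that were higher in NOD.L7 stayed under the filter at an RPKM of 1. They were chosen after their values were seen. Ptgs2, the inducible cyclooxygenase, was at an RPKM of 0.427 in NOD.L7 and 0.0721 in NOD.g7, a fold of 5.92 with a counting interval of 3.37 to 10.7. The inducible HSP70 genes Hspa1a and Hspa1b, near-identical copies whose reads cannot be assigned with certainty, were at 0.633 and 0.880 in NOD.L7, against 0.207 and 0.257 in NOD.g7. Il6 was at 0.340 in NOD.L7 and 0.122 in NOD.g7, with a wide interval of the fold, 1.49 to 5.61. The chemokine gene Cxcl2 was at 0.263 in NOD.L7 and 0.111 in NOD.g7 (interval 1.16 to 5.51). Other genes under the filter in the lists were nearly level or lower. Il10 was at 0.305 in NOD.L7 and 0.289 in NOD.g7, Plk2 at 0.333 in NOD.L7 and 0.406 in NOD.g7, and Cyr61 at 0.0163 in NOD.L7 and 0.0919 in NOD.g7. Egr4 and Nr4a2 were also under the filter in both libraries, Egr4 at 0.0236 in NOD.L7 and 0.0444 in NOD.g7, and Nr4a2 at 0.516 in NOD.L7 and 0.469 in NOD.g7.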
